A study of Mus musculus with 42 samples.

Results

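Interferon-stimulated genes were followed in the lung, liver and forestomach of mice dosed with the polycyclic aromatic hydrocarbon benzo(k)fluoranthene (BkF). A list of 34 genes was taken by gene symbol, and 32 of them were named by a probe of the array through its RefSeq accession, out of 20014 named genes (42 of 55681 probes, 10 genes with more than 1 probe). Mx1 and Mx2 were not named by a probe. A probe was kept in a tissue when its sample signal was well above background on 3 or more arrays, which left all 32 genes in lung and in liver and 29 in forestomach, where Rsad2, Ifi44 and Dhx58 were well above background on 2, 1 and 1 of 14 arrays.

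The animals were adult male Muta™Mouse of about 11 weeks, a transgenic strain that carries a bacterial lacZ reporter for mutation scoring in every tissue and group. They were gavaged daily for 28 days with olive oil alone (D0) or with BkF in olive oil at 25 (D1), 50 (D2) or 100 (D3) mg/kg-bw/day, and tissues were taken 72 h after the last dose, so that the values describe the state after exposure had ended. Lung RNA came from 4, 3, 4 and 4 mice of D0 to D3, liver RNA from 4, 2, 3 and 4, and forestomach RNA from 4, 3, 4 and 3, in most cases tissues of the same mice. Each of the 42 two-colour arrays set one sample (Cy5) against a common reference RNA pooled from mouse cell lines (Cy3), so a level is the log2 ratio of sample to reference for a probe. Levels of different genes were ranked against each other only to choose, in each role, a gene described in full.

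Each tissue carried its own defining genes. The mean level of lung markers was 5.70 to 6.80 in lung arrays, that of liver markers 7.21 to 7.84 in liver arrays, and that of forestomach markers 3.63 to 5.40 in forestomach arrays. Between 28.1% and 60% of probes were well above background on an array. Skeletal muscle markers reached a mean level of 4.71 in the lung of mouse 12 and 3.73 in the liver of mouse 17, against medians of -0.51 in both tissues. The lung of mouse 12 also had the highest forestomach marker level of the lung arrays (3.54, median -0.25), and the lung of mouse 7 the highest glandular stomach marker level (4, median 0.34). In forestomach, glandular stomach markers ran from 0.54 to 6.24. The array column on the slide followed the dose (11 of 12 D0 arrays in the first column, all 8 D1 arrays in the second, 11 of 11 D2 arrays in the third and 10 of 11 D3 arrays in the fourth), so dose and column cannot be told apart. Lung and forestomach arrays were run on slides 1 to 4, with both tissues of a mouse on the same slide except for mice 2 and 16, whereas liver was run on slides 5 and 6 and extracted with another version of the scanner software, so slide and software cannot be told apart from a difference between liver and the other tissues.

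Interferons are secreted by cells that sense viral or misplaced nucleic acid, and they act on neighbouring cells through receptors that signal by way of JAK kinases. Type I and type III interferons act mainly through the interferon-stimulated response element, which a complex that holds STAT2 and IRF9 binds, while interferon gamma acts mainly through the gamma-activated site. The genes switched on in this way sense RNA, block viral replication, attack intracellular pathogens and feed peptides to MHC class I, and a low tonic expression of many of them is present in healthy tissue.

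The 5 promoters printed here hold a match to an interferon element and belong to genes that the results turn on. In RefSeq windows of 300 bases (250 before to 50 after the transcription start, build GRCm38.p6), 26 of the 34 genes had a window. The motif GAAANNGAAA or its reverse complement TTTCNNTTTC, a core of the interferon-stimulated response element, was present for 14 of these 26 genes (53.8%), against 3.99% of 27025 genes with a window. The palindromic gamma-activated site TTCNNNGAA was present for 6 of 26 genes (23.1%), against 9.55% of all. Matches are given in capitals, they may overlap each other, and a match is a string of letters and not a measured binding site. Isg15 lies at chr4:156200769-156201068 on the minus strand and Ifit1 at chr19:34640639-34640938 on the plus strand. Oas3 lies at chr5:120777610-120777909 and Ddx58 at chr4:40239776-40240075, both on the minus strand, and Irf1 at chr11:53769764-53770063 on the plus strand.
Isg15: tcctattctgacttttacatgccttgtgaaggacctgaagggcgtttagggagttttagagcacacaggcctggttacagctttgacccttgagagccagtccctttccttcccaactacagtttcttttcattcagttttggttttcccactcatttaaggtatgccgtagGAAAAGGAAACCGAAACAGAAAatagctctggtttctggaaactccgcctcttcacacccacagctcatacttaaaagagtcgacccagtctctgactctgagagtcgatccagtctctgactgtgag
Ifit1: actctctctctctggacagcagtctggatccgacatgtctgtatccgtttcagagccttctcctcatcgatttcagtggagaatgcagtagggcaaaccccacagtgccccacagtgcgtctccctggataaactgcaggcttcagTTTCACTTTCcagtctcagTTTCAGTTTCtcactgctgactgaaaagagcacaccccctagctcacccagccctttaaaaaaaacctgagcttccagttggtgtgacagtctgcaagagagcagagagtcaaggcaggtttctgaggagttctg
Oas3: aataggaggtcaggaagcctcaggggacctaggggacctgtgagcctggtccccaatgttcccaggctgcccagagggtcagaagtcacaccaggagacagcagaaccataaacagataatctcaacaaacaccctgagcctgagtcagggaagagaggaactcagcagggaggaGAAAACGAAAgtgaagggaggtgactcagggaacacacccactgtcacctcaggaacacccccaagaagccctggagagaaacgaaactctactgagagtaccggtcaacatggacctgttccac
Ddx58: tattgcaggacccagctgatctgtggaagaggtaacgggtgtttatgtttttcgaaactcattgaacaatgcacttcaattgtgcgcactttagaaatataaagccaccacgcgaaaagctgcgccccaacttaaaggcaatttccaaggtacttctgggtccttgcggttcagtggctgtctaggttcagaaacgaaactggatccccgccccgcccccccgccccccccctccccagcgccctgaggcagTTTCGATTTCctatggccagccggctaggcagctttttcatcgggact
Irf1: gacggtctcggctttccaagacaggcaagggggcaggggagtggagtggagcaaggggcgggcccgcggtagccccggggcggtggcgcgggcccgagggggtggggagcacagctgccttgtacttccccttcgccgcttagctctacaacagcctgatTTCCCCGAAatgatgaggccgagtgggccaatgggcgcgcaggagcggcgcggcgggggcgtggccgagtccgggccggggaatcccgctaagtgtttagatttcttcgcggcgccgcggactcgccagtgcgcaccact
Isg15 held 3 overlapping matches and Ifit1 held 2 separate ones, all before the start. The match of Oas3 lay before the start, and that of Ddx58 lay after it. Irf1 held the gamma-activated site alone.

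In vehicle mice, most of these genes were lower in forestomach than in lung or liver. Levels were called different between tissues where limma's adjusted p, taken over all probes kept in both tissues, was at most 0.05 and the difference at least 1.5-fold. Lung was called higher than forestomach for 24 of 29 genes (82.8%) and lower for none, against 19.5% and 18.2% of 24504 probes. Liver was called higher than forestomach for 18 of 29 genes (62.1%) and lower for 1, against 20.6% and 24.3% of 22024 probes. Between lung and liver the genes were split, with 10 of 32 higher in lung and 7 higher in liver, against 27.2% and 22.8% of 24573 probes. The median difference of the genes was 1.55 (log2) for lung over forestomach, 1.14 for liver over forestomach and 0.22 for lung over liver. In whole tissue, fewer cells of an expressing type and less RNA per cell cannot be told apart.

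**Figure D1:**
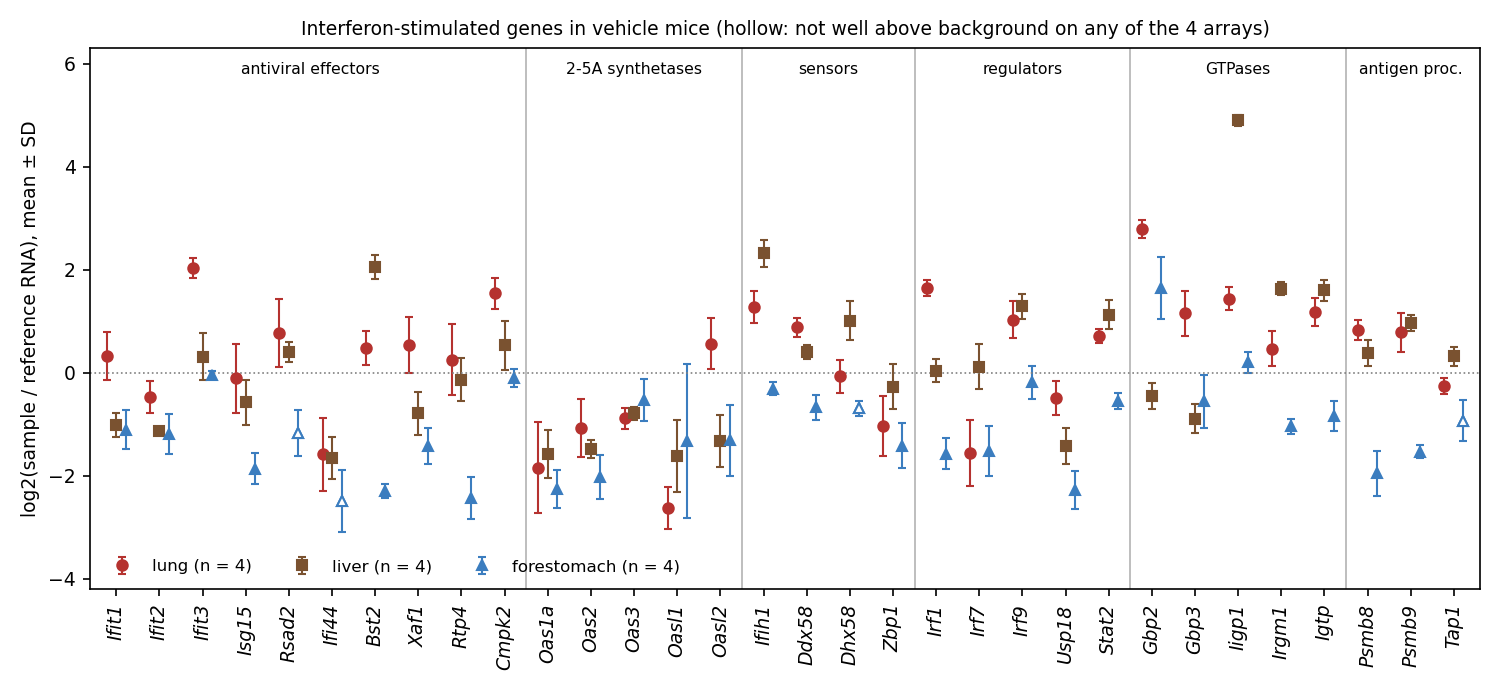
Level of 32 interferon-stimulated genes in vehicle mice as the log2 ratio of sample to reference RNA (vertical axis, mean and SD of 4 mice), by gene and functional group, for lung (circles), liver (squares) and forestomach (triangles). Forestomach lay lowest for most effectors, regulators and antigen-processing genes, while Iigp1 and Bst2 stood highest in liver and Irf1 and Gbp2 in lung.

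Among the regulators, Irf1, a transcription factor that acts downstream of interferon gamma, differed in every pair of tissues. Its level was 1.53, 1.57, 1.64 and 1.88 in the lungs of the 4 vehicle mice, -0.27, 0.17, 0.04 and 0.22 in their livers, and -1.92, -1.66, -1.5 and -1.19 in their forestomachs. The tissues did not overlap, and the difference between lung and forestomach was 3.22 ± 0.24 (SE, adjusted p = 2.7e-13 in limma). Irf7, which drives the interferon alpha genes themselves, was higher in liver than in lung by 1.68 ± 0.32 (adjusted p = 2.2e-05), with means of 0.12 ± 0.44 (SD, n = 4) and -1.56 ± 0.64. In forestomach Irf7 was well above background in 1 of 4 vehicle arrays. Stat2 and Irf9, which belong to the complex that binds the response element, were not called different between lung and liver (-0.42 ± 0.16 and -0.26 ± 0.19) and higher in both than in forestomach (1.25 and 1.21 for lung, 1.67 and 1.47 for liver). Between lung and liver Stat2 had an adjusted p of 0.023 in limma and stayed under 1.5-fold (1.34-fold). Usp18, a protease that strips ISG15 from proteins and damps receptor signalling, fell in the order lung, liver and forestomach with means of -0.49, -1.42 and -2.27, and each step was called. In forestomach Usp18 was well above background on 2 of 4 vehicle arrays, so its level there is not well measured. With the log ratio of the scanner software in place of loess, the excess of liver over forestomach was 2.18 for Usp18 in place of 0.85 and 3.82 for Irf7 in place of 1.65, and that of liver over lung for Irf7 was wider as well (lung minus liver -2.33).

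Of the sensors, Ifih1 (MDA5) and Dhx58 (LGP2), which bind double-stranded RNA, were called higher in liver than in lung by 1.04 ± 0.18 and 1.08 ± 0.18. Zbp1, a sensor of Z-form nucleic acid, was also called higher in liver than in lung (lung minus liver -0.77 ± 0.27, adjusted p = 0.012), a call that was lost without the lung of mouse 2 (difference -0.59, adjusted p = 0.066) or the liver of mouse 4 (difference -0.61, adjusted p = 0.061). Ddx58 (RIG-I) had the opposite order, 0.88 ± 0.19 in lung and 0.40 ± 0.14 in liver, which stayed under 1.5-fold. Ifih1 was 6.17-fold higher in liver than in forestomach (adjusted p = 8e-15; log2 2.63, or 3.22 with the log ratio of the scanner software).

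Of the 10 antiviral effectors, 5 were called higher in lung than in liver and 1 lower. Ifit3, a member of the family that binds foreign RNA, was 2.04 ± 0.19 in vehicle lung, 0.31 ± 0.45 in liver and -0.04 ± 0.08 in forestomach, and lung was called higher than both. Ifit1 and Ifit2 (same family) were higher in lung than in liver by 1.33 ± 0.27 and 0.66 ± 0.19, where they were well above background on 3 and 1 of 4 vehicle liver arrays. Without the lung of mouse 4 the difference of Ifit2 fell under 1.5-fold (0.56), as did its excess over forestomach without the forestomach of mouse 2 (0.58). With the log ratio of the scanner software the excess of lung over liver was larger, at 2.02 for Ifit1 and 1.87 for Ifit2, and that over forestomach was 3.63 and 2.60 in place of 1.42 and 0.72. Both genes were well above background on 1 of 4 vehicle forestomach arrays, so their levels there are not well measured. Xaf1, a pro-apoptotic target of interferon, and Cmpk2, a mitochondrial nucleotide kinase, were higher in lung than in liver by 1.32 ± 0.29 and 1.00 ± 0.27. The call of Cmpk2 for lung over liver was lost with the log ratio of the scanner software (0.90, adjusted p = 0.18). Its call for liver over forestomach (0.63 ± 0.27, adjusted p = 0.045) was lost without the liver of mouse 4 (adjusted p = 0.23) or the forestomach of mouse 1, 2 or 3 (0.089, 0.064 and 0.094), and the difference was 1.96 with the log ratio of the scanner software. Cmpk2 was also well above background on only 1 of 4 vehicle forestomach arrays. Bst2 (tetherin), which holds budding virus at the cell surface, had the opposite pattern. Its vehicle level was 1.99, 2.23, 1.75 and 2.24 in liver, 0.11, 0.32, 0.68 and 0.84 in lung, and -2.23, -2.22, -2.49 and -2.20 in forestomach, a 20.3-fold gap between liver and forestomach (adjusted p = 1.7e-14). Isg15, the ubiquitin-like modifier, and Rtp4, an interferon-induced chaperone of receptor transport, were not called different between lung and liver (differences of 0.47 ± 0.36 and 0.39 ± 0.40) and were lower in forestomach than in lung by 1.75 and 2.69. Rsad2 (viperin) and Ifi44 were measured in lung and liver alone, with differences of 0.36 ± 0.35 and 0.08 ± 0.38.

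Genes of the 2-5A synthetase family, whose active enzymes make the oligoadenylate that activates RNase L, were called in few pairs. Oasl2, an OAS-like protein, was 0.56 ± 0.49 in lung, -1.32 ± 0.51 in liver and -1.31 ± 0.69 in forestomach, so that lung was higher than both by about 3.7-fold (3.68 and 3.66). Oas2 was called higher in lung than in forestomach (0.95 ± 0.28), by 1.83 with the log ratio of the scanner software, which also widened that gap for Oasl2 to 2.66 in place of 1.87. Oas1a, Oas3 and Oasl1 were called in no pair, and Oasl1 had an SD of 1.5 within vehicle forestomach.

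The interferon-inducible GTPases held the largest differences between lung and liver. Iigp1, an immunity-related GTPase that attacks the vacuoles of intracellular parasites, was 4.81, 4.85, 4.89 and 5.05 in vehicle liver, 1.20, 1.59, 1.66 and 1.29 in lung and 0.36, -0.05, 0.12 and 0.38 in forestomach. Liver thus exceeded lung 11-fold (adjusted p = 6.8e-11) and forestomach 25.9-fold (adjusted p = 4.7e-14), and with the log ratio of the scanner software the gaps were wider (lung minus liver -4.34 in place of -3.47, liver minus forestomach 5.74 in place of 4.70). Irgm1, a regulator of the same family, was also higher in liver than in lung (1.16 ± 0.25), while Igtp was not called different between them (-0.42 ± 0.51). Gbp2, a guanylate-binding protein, ran the other way, at 2.95, 2.56, 2.92 and 2.75 in lung, -0.57, -0.38, -0.73 and -0.14 in liver and 2.30, 0.84, 1.77 and 1.67 in forestomach. Gbp2 was the gene called lower in liver than in forestomach (by 2.10 ± 0.42). Its excess in lung over forestomach, 1.15 ± 0.42, was not called without the forestomach of mouse 2 (0.88, adjusted p = 0.095). Gbp3 was higher in lung than in liver by 2.06 ± 0.35.

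The antigen-processing genes were not called different between lung and liver and were called lower in forestomach than in both. Tap1 came close to a call between lung and liver (lung minus liver -0.58, 1.49-fold, adjusted p = 0.053 in limma). Psmb8 and Psmb9, subunits of the immunoproteasome, were lower in forestomach than in lung by 2.79 ± 0.27 and 2.31 ± 0.27 and lower than in liver by 2.34 ± 0.27 and 2.50 ± 0.27. Tap1, which carries the resulting peptides into the endoplasmic reticulum, was not well above background on any vehicle forestomach array, so its level there is not well measured. In the sample channel alone, which is open to dye bias, the gap to lung was at least 1.46-fold (adjusted p = 0.031 for the log ratios). The gap to liver in the log ratios was 2.38-fold (adjusted p = 0.00012), and no bound is given for it, since the value from the sample channel exceeded that fold. With the log ratio of the scanner software the log2 gaps were 2.48 to lung and 3.46 to liver, in place of 0.67 and 1.25. The call against lung was lost when lung of mouse 3 or 4 or forestomach of mouse 2 or 3 was left out (adjusted p of 0.081, 0.058, 0.09 and 0.11).

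No gene of the list passed the threshold at any dose of BkF. The question was whether any dose changed these genes against vehicle in the same tissue. In lung, 0 of 32 genes were called at D1, D2 and D3, where 0%, 0.0153% and 0.0336% of 32697 probes were called. In liver, 0 of 32 were called, beside 0%, 0.0488% and 0.06% of 26648 probes. In forestomach, 0 of 29 were called at each dose, as were 0% of 25305 probes. At an unadjusted limma p under 0.05, lung had 0, 1 and 1 genes (1.77%, 4.25% and 8% of all probes at D1, D2 and D3), liver had 0, 3 and 0 (1.53%, 11.7% and 8.51%), and forestomach had 1, 2 and 4 (12.1%, 7.6% and 2.22%). A linear trend with dose also called 0 genes in each tissue, where 0.0336%, 0% and 0% of probes were called in lung, liver and forestomach. At an unadjusted p under 0.05 the trend had 1 gene in lung, Bst2 (8.49% of probes), 0 in liver (9.31%) and 6 in forestomach (2.81%), which were Psmb9, Stat2, Irf1, Irgm1, Iigp1 and Psmb8. The SE of a change had a median over the genes of 0.28 in lung, 0.26 in liver and 0.29 in forestomach at D3 (log2), which limits the size of change these groups could show.

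The median change of the genes was -0.04, -0.06 and 0.01 in lung, -0.08, -0.16 and -0.03 in liver and 0.22, 0.02 and 0.27 in forestomach for D1, D2 and D3 (log2), where the medians over all probes lay between -0.02 and 0.02. At D1, D2 and D3, 12, 12 and 18 of 32 genes had a positive change in lung, beside 47.5%, 48.6% and 50.9% of all probes, and 9, 11 and 14 of 32 in liver, beside 47.4%, 46.4% and 46.6%. In forestomach 23, 16 and 22 of 29 genes had a positive change at D1, D2 and D3, beside 47.9%, 52.9% and 51% of all probes. Tissue and cell markers differed from vehicle in the same arrays, and their part in the result was not tested. At D1 the mean of 9 glandular stomach markers was 2.41 to 2.87 above the vehicle mean (vehicle mice -2.77 to 2.62), that of 6 forestomach markers -1.14 to -0.40 (vehicle -0.06 to 0.14) and that of 5 plasmacytoid dendritic cell markers 0.43 to 0.75 (vehicle -0.04 to 0.08). At D3 the same lists ran from -2.12 to 2.34, from -0.68 to 0.05 and from -0.25 to 0.69. In lung the mean of 4 neutrophil markers ran from 0.87 to 2.91 at D2 (vehicle -0.44 to 0.41). That of 7 T and NK cell markers in lung ran from -0.70 to -0.385 at D1 (vehicle -0.25 to 0.37). At D3 it ran from -0.66 to -0.31. In liver the mean of 3 neutrophil markers ran from 0.45 to 4.35 at D2 (vehicle -0.31 to 0.44). The forestomach median at D1 was 0.06 and 0.13 without vehicle mouse 2 or 3, 0.10 without D1 mouse 7, 0.1 with the slide as a random block, and 0.09 over probes well above background on every array. Over all alternatives the forestomach median at D1 reached 0.37 at most. At D3 it was 0.16 without mouse 20 and 0.63 with the log ratio of the scanner software in place of loess. The liver median at D2 was 0.13 without mouse 12, -0.36 without mouse 13 and -0.06 without vehicle mouse 4. The mean over the genes in each mouse, taken against the vehicle mean, ran from -0.30 to 0.41 in vehicle lung and from -0.15 to 0.24 in D3 lung. In liver it ran from -0.21 to 0.31 in vehicle and from -0.14 to 0.17 at D3. The widest group was D2, with values of 0.08, -0.67, 0.55 and -0.01 in the lungs of mice 11, 12, 13 and 15 and of 0.03, -0.78 and 0.38 in the livers of mice 11, 12 and 13. Exposed and vehicle mice overlapped in each of these groups. In forestomach the vehicle mice ran from -0.25 to 0.12, and the D3 mice 16, 17 and 20 had 0.03, 0.20 and 0.64.

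**Figure D2:**
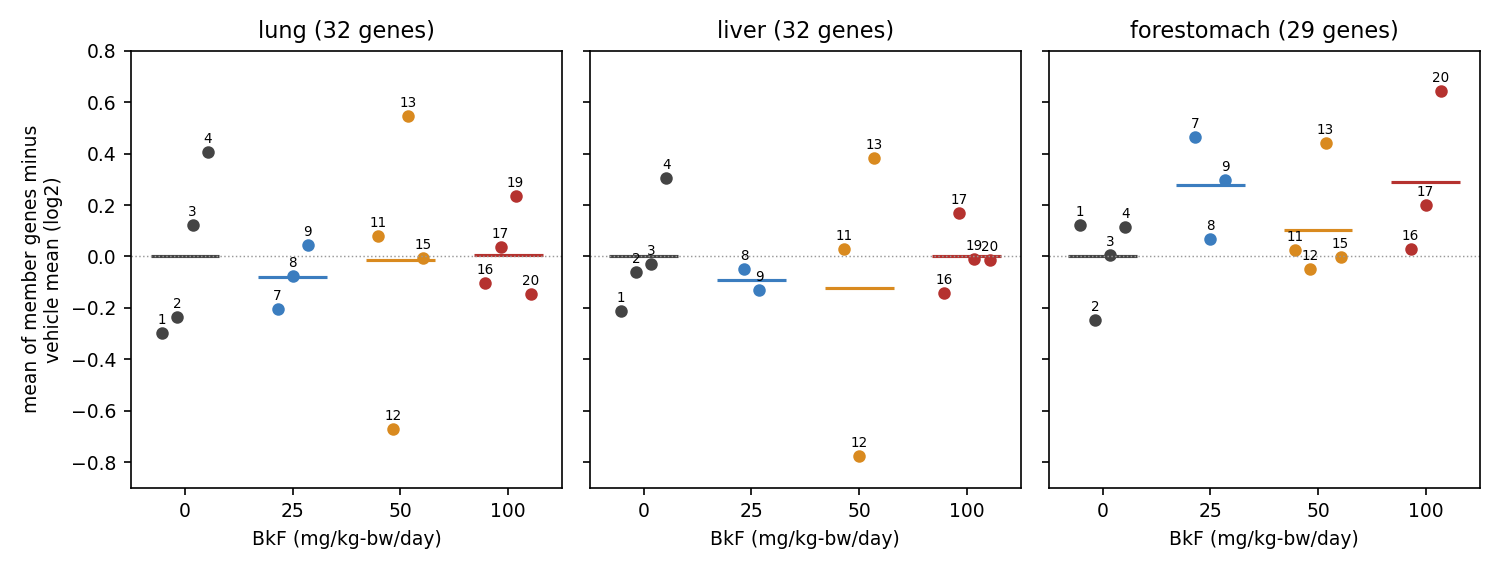
Mean of the interferon-stimulated genes in each mouse minus the vehicle mean of the tissue (log2, vertical axis) against BkF dose in mg/kg-bw/day, with mouse numbers beside the points and group means as lines. Groups overlapped in every tissue, and mouse 12 lay lowest and mouse 13 highest of the D2 mice in both lung and liver.

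In forestomach the 4 genes with the lowest unadjusted p at D3 were Psmb9, Irf1, Stat2 and Irgm1, and none passed the adjustment. Irf1 was -0.44, -1.07 and -0.88 at D1, -0.91, -0.58, -0.91 and -0.83 at D2 and -1.26, -0.70 and -0.37 at D3, against -1.92 to -1.19 in the 4 vehicle mice. All D1 and D2 mice and 2 of 3 D3 mice stood above every vehicle mouse, by a mean of 0.77 ± 0.23, 0.76 ± 0.21 and 0.80 ± 0.23 (SE, adjusted p = 0.27, 0.48 and 1). Psmb9 was -1.69, -1.47, -1.57 and -1.38 in vehicle mice and -1.08, -0.97 and -0.35 at D3, a difference of 0.73 ± 0.18 (unadjusted p = 0.0013 and adjusted p = 1 in limma) with 3 of 3 mice above all vehicle mice. Stat2 differed from vehicle by 0.36 ± 0.14 at D2 (adjusted p = 0.59) and by 0.38 ± 0.15 at D3 (adjusted p = 1). Irgm1 differed by 0.60 ± 0.27 at D3 (adjusted p = 1), where the values were -0.85, -0.77 and 0.26 and the high value belonged to mouse 20. Without mouse 20 the D3 differences of Irgm1 and Stat2 were 0.24 and 0.25, and with the other probe of Irgm1 averaged in, its difference was 0.34. Mouse 20 also had the highest mean over the genes in forestomach. At D1 the largest differences were those of Oasl1 and Oas1a, 2.57 ± 1.23 and 1.17 ± 0.58 (adjusted p = 0.43 and 0.44), with 3 of 3 mice above all vehicle mice for both, and these were 0.67 and 0.44 with the glandular stomach marker level as a covariate. At D1 all mice stood above every vehicle mouse for 4 of 29 genes (Oasl1, Oas1a, Irf1 and Psmb9), beside 5.64% of probes, and below for Ifit3, beside 9.19%. Ifit3 was -0.17, -0.47 and -0.46 at D1, against -0.15 to 0.05 in vehicle mice (difference -0.33 ± 0.22, adjusted p = 0.55). At D2 the genes wholly above vehicle were Irf1, Stat2 and Psmb9 (1.4% of probes), at D3 they were Psmb9, Irgm1 and Ifih1 (1.79%), and none lay wholly below (2.16% and 1.11%). With the same covariate, Irf1 differed by 0.81 and Psmb9 by 0.73 at D3 (adjusted p = 0.99 for both).

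**Figure D3:**
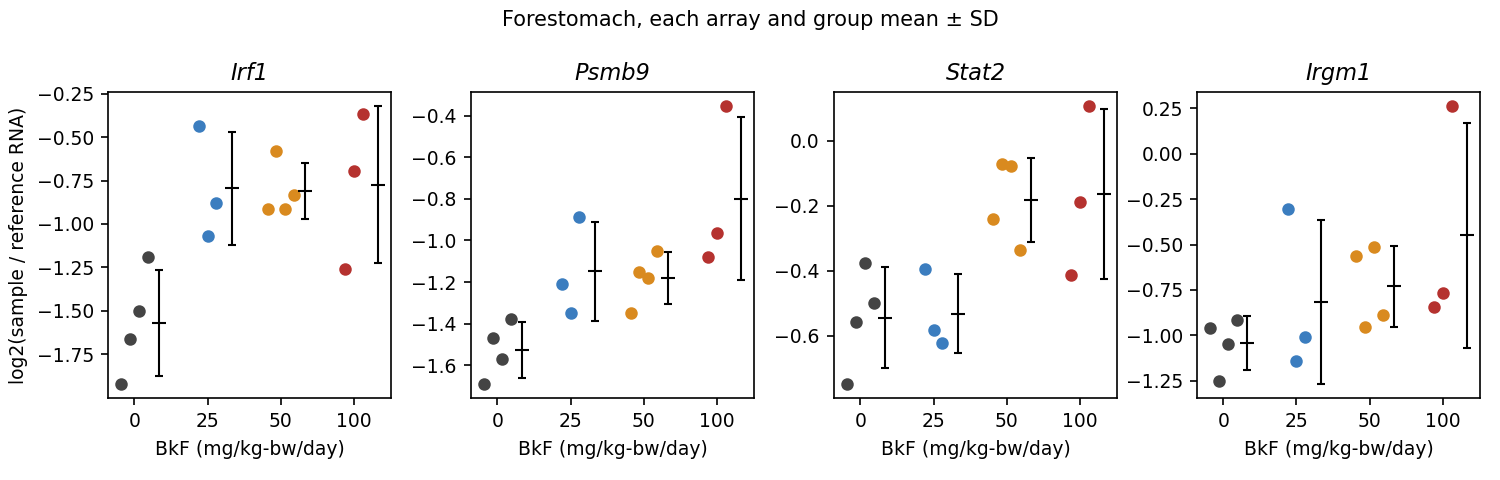
Forestomach levels of Irf1, Psmb9, Stat2 and Irgm1 as log2 ratio of sample to reference (vertical axes, each panel with its own range) against BkF dose in mg/kg-bw/day, each array as a point with the group mean and SD beside it. The D3 means lay above the vehicle means by 0.80, 0.73, 0.38 and 0.60, and none of these differences passed the adjustment over all probes.

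In lung and liver several of the named genes had negative values, while others had positive ones. Gbp2 differed by 0.56 ± 0.27 in lung at D2 and by 0.50 ± 0.31 in liver at D3 (adjusted p = 0.69 in limma for liver), and neither was called. Bst2 in lung was 0.11 to 0.84 in vehicle mice and -0.25, -1.08, -0.07 and 0.32 at D3, a difference of -0.76 ± 0.31 (adjusted p = 0.56) with 3 of 4 mice below all vehicle mice, and it was -0.49 without mouse 17. Ifi44 differed by -1.04 ± 0.39 at D2 in lung (adjusted p = 1), where the lung of mouse 12 had -3.78, and by -0.65 without it. The most negative difference of Ifi44 there under any alternative was -1.68. In liver at D2, Irf7 differed by -0.86 ± 0.32, Dhx58 by -0.52 ± 0.22 and Bst2 by -0.61 ± 0.27 (adjusted p = 0.34, 0.40 and 0.42), and the liver of mouse 12 was the lowest of the 3 mice for each, at -1.63, -0.05 and 0.59. Without it the differences were -0.42, -0.24 and -0.17 (adjusted p = 0.64, 0.73 and 0.78). The most negative differences of the same genes under any alternative were -1.17, -0.88 and -0.88. Psmb9 and Irf1 in lung had all 4 D3 mice above all vehicle mice, with differences of 0.55 ± 0.28 and 0.35 ± 0.24 (adjusted p = 0.66 and 0.77), and were 2 of 32 such genes beside 2.94% of probes. Rsad2 in liver at D1 had both mice below all vehicle mice (-0.45 ± 0.38, adjusted p = 1), 1 of 32 genes beside 5.37% of probes. No other gene lay wholly above or below vehicle in these tissues, where the shares of probes wholly above were 1.72% and 1.2% in lung at D1 and D2 and 5.6%, 4.77% and 3.04% in liver at D1 to D3, and the shares wholly below were 2.36%, 1.14% and 2.38% in lung and, at D2 and D3, 5.22% and 3.37% in liver.

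No difference of the high-dose change between tissues passed the threshold. As an interaction over all arrays, 0 of 32 genes were called for lung against liver (0.0122% of probes), 0 of 29 for lung against forestomach (0.0122%) and 0 of 29 for liver against forestomach (0%). At an unadjusted p under 0.05 there were 0, 1 and 0 genes, beside 5.24%, 4.58% and 3.4% of probes. The 1 gene was Bst2, whose D3 change was lower in lung than in forestomach by 1.02 ± 0.45 (adjusted p = 1).

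The rest of the interferon pathway, a list of 78 ligands, receptors, signal transducers, induction factors and further targets, was treated in the same way. Of its 70, 69 and 66 genes kept in lung, liver and forestomach, 0 were called at any dose, and 1, 3 and 6 in lung, 1, 8 and 2 in liver and 11, 8 and 6 in forestomach had an unadjusted limma p under 0.05 at D1, D2 and D3. These were 1.43%, 4.29% and 8.57% of the list in lung (1.77%, 4.25% and 8% of all probes), 1.45%, 11.6% and 2.9% in liver (1.53%, 11.7% and 8.51%) and 16.7%, 12.1% and 9.09% in forestomach (12.1%, 7.6% and 2.22%). The lowest unadjusted p at D3 belonged to Lgals3bp and Lgals9, a pair of galectin-related genes, in lung (-0.55 ± 0.18 and -0.75 ± 0.24, adjusted p = 0.43 for both), to Irf8, a myeloid transcription factor, and Nlrc5, the transactivator of MHC class I genes, in liver (0.68 ± 0.18 and 0.48 ± 0.19, adjusted p = 0.31 and 0.51), and to Gbp6 and Parp9 in forestomach (0.59 ± 0.17 and 0.47 ± 0.13, adjusted p = 1 for both). At D3 in forestomach 31 of 38 further targets had a positive change, beside 51% of all probes, with a median of 0.23. The mean of the further targets against vehicle was 0.08, 0.13 and 0.27 in forestomach at D1, D2 and D3. In lung it was -0.02, 0.08 and 0.04, and in liver -0.04, 0.11 and 0.11.

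The genes moved together from mouse to mouse within a dose group. To describe this, each value was taken as the deviation from the mean of its dose group in the tissue, and the mean of these deviations over the genes gave 1 score per mouse and tissue. No p is given here, since the genes share arrays and RNA. The correlation of a gene with the mean of the other genes had a median of 0.80 in lung (15 arrays), 0.81 in liver (13 arrays) and 0.65 in forestomach (14 arrays), and it was above 0.5 for 26 of 32, 27 of 32 and 18 of 29 genes. Over all probes the median correlation with the score was 0.0031, -0.017 and -0.051, and 8.84%, 11.5% and 11.8% were above 0.5. The spread between mice was also wide: the median SD within dose groups was 0.44 for these genes and 0.20 for all probes in lung, 0.41 and 0.19 in liver, and 0.41 and 0.27 in forestomach. In lung 17 of 32 genes and in liver 20 of 32 exceeded the 90th percentile of all probes, against 4 of 29 in forestomach.

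The scores of lung and liver of the same mouse went together. Over the 13 mice with both tissues, Pearson's r was 0.91 and Spearman's rho 0.77, and the signs agreed in 10. Mouse 12 (D2) was lowest in both, at -0.66 in lung and -0.66 in liver, and mouse 13 (D2) highest in both, at 0.56 and 0.50. Mouse 4 (D0) came second, at 0.41 and 0.31, and mouse 1 (D0) was low at -0.30 and -0.21. The liver array of mouse 13 stood apart, with 57.6% of probes well above background, where the next highest liver array (mouse 19) had 46.4%. The part of this share in the liver score of mouse 13 was not tested. Between the lowest and the highest mouse the mean of the genes differed 2.32-fold in lung and 2.23-fold in liver. The lung of mouse 12 set the lung range, which was 1.63-fold without that array (0.70 on the log2 scale in place of 1.22). The liver range also rested on mouse 12, with mouse 1 the next lowest liver at -0.21, and it was not recomputed without that array. Without mice 12 and 13, those farthest from the median in lung, r was 0.74 (11 mice). The lowest r with any single mouse left out was 0.85, without mouse 12.

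**Figure D4:**
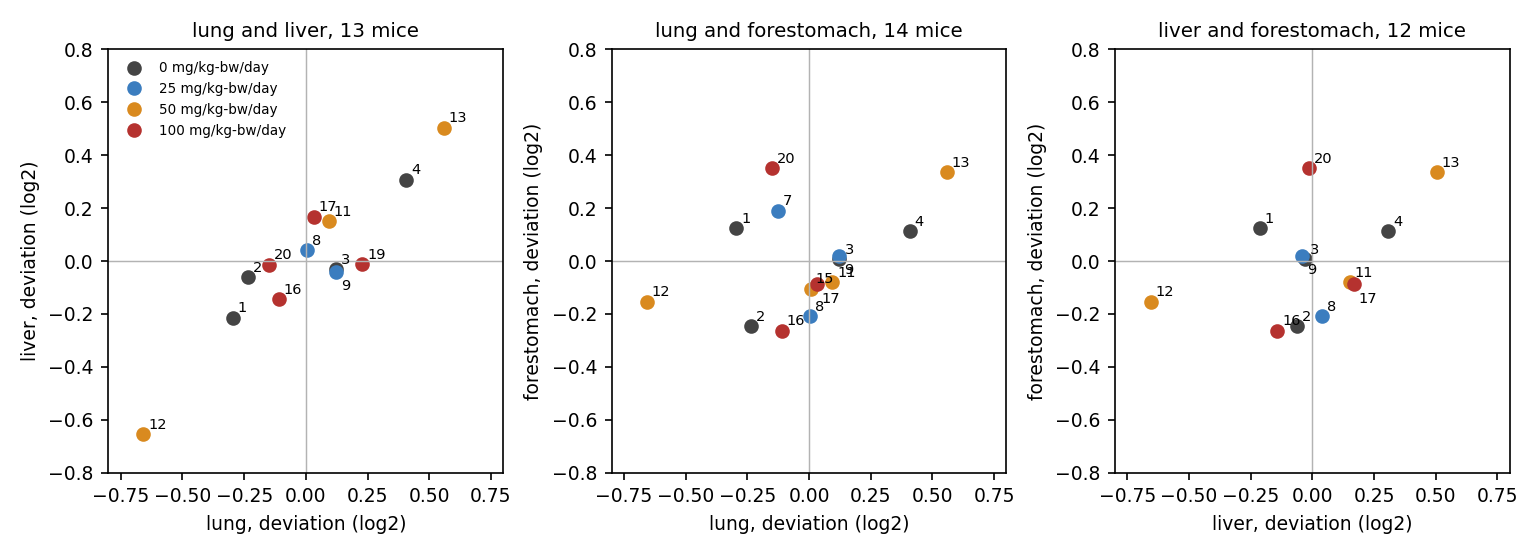
Mean deviation of the interferon-stimulated genes from the dose-group mean (log2) in 1 tissue against another, each point a mouse with its number, coloured by BkF dose in mg/kg-bw/day. Lung and liver rose together (r = 0.91 over 13 mice), with mouse 12 and mouse 13 at the ends, whereas against forestomach the correlation was lower (r = 0.39 over 14 mice and 0.44 over 12 mice).

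Lung mouse 12 and liver mouse 17 are the arrays with skeletal muscle RNA. With both arrays left out and the dose-group means recomputed, r was 0.73 and rho 0.67 over 11 mice, and 0.38 over the 9 mice left after dropping the 2 farthest from the median. With the slide added to the dose group as a term, r was 0.88 and rho 0.87 over 13 mice. Against forestomach the scores gave r = 0.39 and rho = 0.26 for lung (14 mice) and r = 0.44 and rho = 0.37 for liver (12 mice), and with the slide term -0.13 and -0.07. These relations with forestomach rested on mice 12 and 13, without which r was 0.02 and 0.09.

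Gene by gene, 20 of 32 had a lung to liver correlation above 0.5 over the 13 mice, with a median of 0.66, where 10.5% of 24454 probes were above 0.5 and their median was 0.02. Without the arrays that carried skeletal muscle RNA (lung mouse 12 and liver mouse 17) these values dropped to 12 of 32 genes and a median of 0.42 over 11 mice, beside 10.9% of probes and a median of 0.0032. The highest were Psmb9 (0.87), Irf9 (0.86), Gbp3 (0.86), Isg15 (0.85), Oasl2 (0.84), Irf1 (0.84), Rtp4 (0.83) and Igtp (0.81), which take in regulators, effectors, GTPases and the immunoproteasome. Igtp, a GTPase of the Irgm1 family, was 2.41, 0.19, 3.54 and 1.88 in D2 lung of mice 11, 12, 13 and 15 and 1.88, 1.16 and 3.57 in D2 liver of mice 11, 12 and 13. Isg15 was -0.28, -1.72, 0.82 and -0.46 in the same lungs and -0.77, -1.65 and -0.15 in the same livers. Among vehicle mice, Isg15 was highest in mouse 4 in both tissues (0.78 in lung and 0.04 in liver) and lowest in mouse 1 in both (-0.80 and -0.97).

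**Figure D5:**
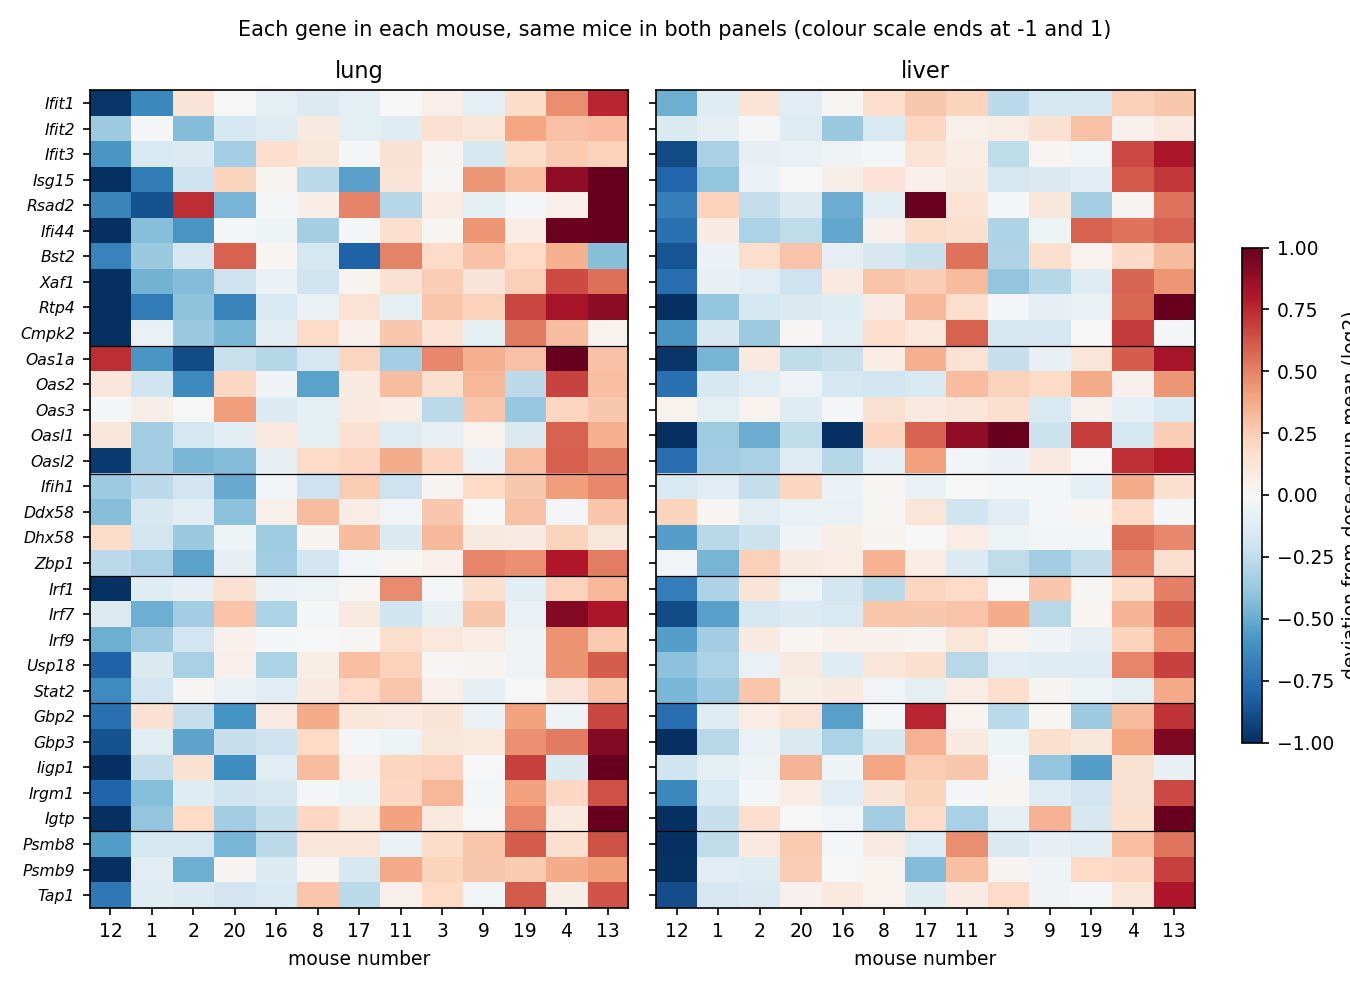
Deviation of each of 32 genes (rows, grouped by role) from its dose-group mean in each of 13 mice (columns, ordered by the lung score), in lung and in liver, with log2 deviation as colour that ends at -1 and 1. Mouse 12 is low and mice 4 and 13 are high for most genes in both panels.

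Some genes had no such relation between lung and liver. Oas3 (lung to liver r of -0.69), Ddx58 (-0.23), Oasl1 (-0.11) and Iigp1 (-0.08) had negative values, and Zbp1 (0.08), Oas1a (0.12) and Dhx58 (0.19) had values under 0.2. Within a tissue several of them went with the other genes: Oas1a and Dhx58 correlated with the others at 0.96 and 0.90 in liver but at 0.26 and 0.31 in lung, and Zbp1 and Ddx58 at 0.77 and 0.68 in lung but at 0.35 and -0.25 in liver. Oasl1 had 0.44 in lung and 0.51 in liver, and Oas3 had 0.11 and -0.17. Iigp1, whose level was high and even in vehicle liver, correlated with the other genes at 0.78 in lung and at 0.28 in liver. Oas3 and Ddx58 varied little in liver (SD of deviations 0.12 for both), against 0.58 for Rtp4 and 0.54 for Igtp. The median lung to liver r was 0.63 for the 14 genes with a match to the response element, which include Isg15, Oas3 and Ddx58, and 0.72 for the 12 genes with a window and no such match, which include Irf1 with its gamma-activated site. Where a gene had other probes, their deviations correlated with those of the lead probe at 0.98 in lung and 0.92 in liver for Isg15, 0.98 and 0.83 for Iigp1 and 0.89 and 0.94 for Oas1a. The correlation was low for Xaf1 and Ifih1 in lung (0.30 and 0.27) and Ddx58 in liver (0.19), where the other probe was well above background on 9 of 15, 7 of 15 and 7 of 13 arrays. For Zbp1 in liver it was 0.49, with the other probe well above background on 13 of 13 arrays.

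Many further interferon targets outside the list went with the same scores, with a correlation above 0.5 for 27 of 39 genes in lung, 27 of 39 in liver and 14 of 38 in forestomach. The mean of 39 such genes correlated with the score at 0.96 in lung and 0.96 in liver, and the mean of 38 at 0.81 in forestomach. Irgm2, a GTPase, had 0.90 in lung and 0.95 in liver, Cxcl10, a chemokine, 0.78 and 0.86, and B2m, the light chain of MHC class I, 0.90 and 0.62. Ifitm2, a membrane protein that blocks viral entry, had 0.04 and -0.05. Ifitm1 of the same family had -0.65 in lung and in forestomach and 0.72 in liver, and Ly6e and Samd9l had -0.44 each in liver. In lung and liver the list means had 0.21 and 0.55 for receptors, 0.16 and -0.19 for ligands, 0.46 and 0.74 for signal transduction and -0.54 and 0.58 for induction factors. Without mouse 12 the lung values were 0.25 for receptors, 0.22 for ligands, 0.23 for signal transduction and -0.17 for induction factors.

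Other measures moved with the scores, and their part in the result was not tested. In liver the mean of 7 macrophage and monocyte markers correlated with the score at 0.93 (range of the list mean -0.75 to 0.53, 6 of 7 genes above 0.5), whereas in lung the value for 6 such markers was -0.46, and 0.15 without mouse 12. In lung the mean of skeletal muscle markers correlated at -0.73, and at -0.48 without mouse 12, that of forestomach markers at -0.72 and -0.47, that of plasmacytoid dendritic cell markers at -0.56 and -0.26, and that of B and plasma cell markers at 0.62 and 0.35. In forestomach the mean of 3 B and plasma cell markers correlated at 0.80 and that of 4 T and NK cell markers at 0.68. The percentage of probes well above background correlated with the score at -0.30 in lung, 0.54 in liver and -0.73 in forestomach. In forestomach the 2 highest scores, mice 13 (0.34) and 20 (0.35), came from slide 3, and the number of genes correlated above 0.5 with the others was 9 of 29 with the slide term in place of 18.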

How the data were processed

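Per the file headers, the authors scanned the arrays on an Agilent scanner and deposited spot intensity values from Feature Extraction, with a log10 ratio of red to green. The median signals, without background subtraction, were normalised within each array by loess to log2 ratios of sample to reference in limma 3.58.1 (R 4.3.3). Control spots and spots marked as outliers were left out, and spots of 1 probe were averaged. The authors also deposited a table of processed log2 ratios, with column medians of -0.0425 to -0.00172. It correlated with the loess ratios at 0.995 to 0.999 in lung and forestomach, which settles its direction there, and served as an alternative. A correlation cannot settle the scale, which was not compared. The liver columns of the table correlated at about 0 by probe name and were not used. Probes were named through RefSeq accessions, and the sequences printed are those of RefSeq (GRCm38.p6).

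The published methods used LOWESS and a shuffled-residual test in MAANOVA. Here lmFit and eBayes were fitted in each tissue to all arrays, with p-values adjusted by Benjamini-Hochberg over all kept probes. Calls needed both an adjusted p no higher than 0.05 and a 1.5-fold change. Tissues were compared in 1 fit of all 42 arrays. The lead probe of a gene was the kept probe of highest mean brightness. All 34 genes were accounted for, and the rule for full values took genes called in any contrast, for each tissue and dose the 4 genes of lowest unadjusted p, and in each role the gene of highest vehicle level. Of the pathway list it took the 2 genes of lowest p per tissue at D3. Genes described for their variation between mice were chosen after their values were seen. The genes and lists were chosen with earlier results of these data known. The number of arrays limits the precision of every value. Mouse numbers in the sample titles pair the tissues of 1 animal. The median correlation of deviations over mice was 0.021 for lung and liver, 0.24 for lung and forestomach and -0.0056 for liver and forestomach over all probes. The fits were tested on simulated data. Alternatives changed the log ratio, background correction, filter, probe choice, slide, samples and covariates.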

Additional observations from a re-analysis of the deposited data

Results flagged for a closer look

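In forestomach at D2 the mean of the interferon-stimulated genes was 0.441 above the vehicle mean (log2) in mouse 13, while the other 3 mice lay between -0.05 and 0.0236. This was 1 sample far from the others among 47 groups examined, where chance gives about 5%. Mouse 13 also had the highest mean of the genes among the D2 mice in lung and in liver.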

How the results depend on the processing

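Under every alternative run, 0 genes of the list were called for a dose or a trend in any tissue, or for a difference of the high-dose change between tissues. All 36 named dose changes and all 60 called vehicle differences kept their direction under every alternative, and 7 of these 96 lost their call under at least 1 alternative: Ifit2, Zbp1 and Cmpk2 for lung against liver, Ifit2, Gbp2 and Tap1 for lung against forestomach and Cmpk2 for liver against forestomach. Cmpk2 had an adjusted p of 0.18 for lung against liver with the Feature Extraction log ratio and of 0.078 for liver against forestomach with no filter. With probes well above background on every array, fewer genes were tested, and the genes called between vehicle tissues numbered 15 for lung against forestomach and 12 for liver against forestomach. With the mouse as a replicate block the numbers were 17, 24 and 20, so the pairing changed no count by over 1.5 times. The median change in forestomach at D3 was 0.63 with the Feature Extraction log ratio. Leaving out each array gave median changes of -0.17 to 0.059, -0.15 to 0.12 and -0.078 to 0.13 in lung, -0.15 to -0.026, -0.36 to 0.13 (0.13 without mouse 12) and -0.065 to 0.075 in liver, and 0.057 to 0.28, -0.069 to 0.17 and 0.16 to 0.34 in forestomach for D1 to D3. It gave 16 to 17, 21 to 24 and 18 to 20 genes called for the vehicle pairs. Where this left 1 liver at D1, its spread was taken from the other groups. The correlation of lung and liver scores was 0.731 without the 2 arrays with muscle RNA, and that of liver and forestomach was 0.565 with the Feature Extraction log ratio. A slide term and centring on the tissue mean were chosen after seeing the data. With the slide term, the correlations with forestomach turned to -0.131 (lung) and -0.0651 (liver), and 9 forestomach genes correlated above 0.5 with the others. The cause was not tested.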
